A study of Mus musculus with 8 samples.

Results

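The loops described here are those that FOXA1 or HNF4G Hi-ChIP placed at 9 genes of the major histocompatibility class I antigen presentation pathway: H2-K1, H2-D1, B2m, Tap1, Tap2, Tapbp, Psmb8, Psmb9 and Nlrc5. A loop was counted for a gene when either of its 2 anchors, the genomic intervals that the loop joins, lay within 2 kb of an annotated transcript start of that gene. By this rule 142 of the 249200 distinct loops in the series belonged to these genes, and all 142 lay at Tapbp or H2-D1. The other 7 genes had no anchor within 2 kb in any list.

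Hi-ChIP enriches ligated chromatin fragments with an antibody, so that it records contacts of sites bound by the protein. With 2 replicates each, 4 groups made up the 8 samples: an antibody to FOXA1 or to HNF4G was used in a line grown from a KPC primary pancreatic tumor (tumor) and in its matched line from a liver metastasis (liver mets). All samples were labelled WT in genotype and untreated, and all cells were grown in DMEM with serum. Each context was 1 cell line, and each group had 1 loop list that joined both replicates, which held 125623 (liver mets) and 104136 (tumor) loops for FOXA1, against 78098 and 76323 for HNF4G. No spread between replicates could therefore be calculated and no difference between groups was tested. The intervals given are 95% intervals for counting error only, and the read depth behind the lists is unknown. FOXA1 and HNF4G are transcription factors that bind regulatory DNA in endoderm-derived cells such as those of liver and pancreas.

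Class I molecules display peptides from inside the cell to CD8+ T cells. The immunoproteasome subunits encoded by Psmb8 and Psmb9 help to cut the peptides, Tap1 and Tap2 form the transporter that carries them into the endoplasmic reticulum, and tapasin, the product of Tapbp, holds the transporter and the empty class I molecule together while peptide is loaded. H2-K1 and H2-D1 encode classical class I heavy chains, B2m encodes the light chain they share, and Nlrc5 is a transactivator of class I genes. Most of these genes are induced by interferon-gamma. In the mouse, 7 of the 9 lie in the histocompatibility region of chromosome 17, while B2m lies on chromosome 2 and Nlrc5 on chromosome 8.

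The absence of an anchor was the most frequent state among these genes. Of 9 members, 2 had an anchor within 2 kb of a start. Across the genome, 10802 of 21951 protein-coding genes had one (49.2%), and within the histocompatibility region it was 111 of 192 (57.8%). The same 2 genes were found when a start had to lie inside an anchor, and 3 of 9 were found when 5 kb was allowed. A gene without an anchor cannot appear in a loop list, so these lists hold no measurement of its contacts, and no contact was shown to be absent. All 4 lists drew on a common set of 30542 anchors.

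The 7 genes without an anchor differed in how near one lay. H2-K1 (chr17:33996017-34000347, minus strand) was 14.3 kb from the anchor at the class I pseudogene H2-K2 (chr17:33980482-33982412), which had 11 loops in liver mets and 12 in tumor for FOXA1, and 14 and 11 for HNF4G. B2m (chr2:122147686-122153083, plus strand) was 28.6 kb from an anchor at Spg11 (chr2:122117703-122119107), which had 3 and 2 loops for FOXA1 and 4 and 5 for HNF4G, liver mets being given before tumor here and below. The anchor at H2-K2 thus had more loops in every list than the anchor at Spg11.

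Nlrc5 (chr8:94434356-94527272, plus strand) had its gene start 45.0 kb from the nearest anchor. One of its internal transcript starts was 2.44 kb from an anchor that lay just past the far end of the gene (chr8:94527507-94529582), and this anchor had 4 and 10 loops for FOXA1 and 10 and 2 for HNF4G. The 2 factors thus ran in opposite order between the lines there. It was this anchor that brought in Nlrc5 when 5 kb was allowed.

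Psmb9 (chr17:34181987-34187764, minus strand), Tap1 (chr17:34187553-34197225, plus strand), Psmb8 (chr17:34197721-34201454, plus strand) and Tap2 (chr17:34203527-34216321, plus strand) sit next to each other. They were 47.9 kb, 51.9 kb, 62.1 kb and 67.9 kb from the same nearest anchor, at H2-DMa (chr17:34133576-34135605), which had 10 and 7 loops for FOXA1 and 6 and 8 for HNF4G. Distances of this size are common: 26.6% of 21755 protein-coding genes lay as far from an anchor as Psmb9 or farther, and 23.3% as far as Tap2 or farther. The same share was 38.6% for H2-K1 and 31.7% for B2m.

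**Figure D1:**
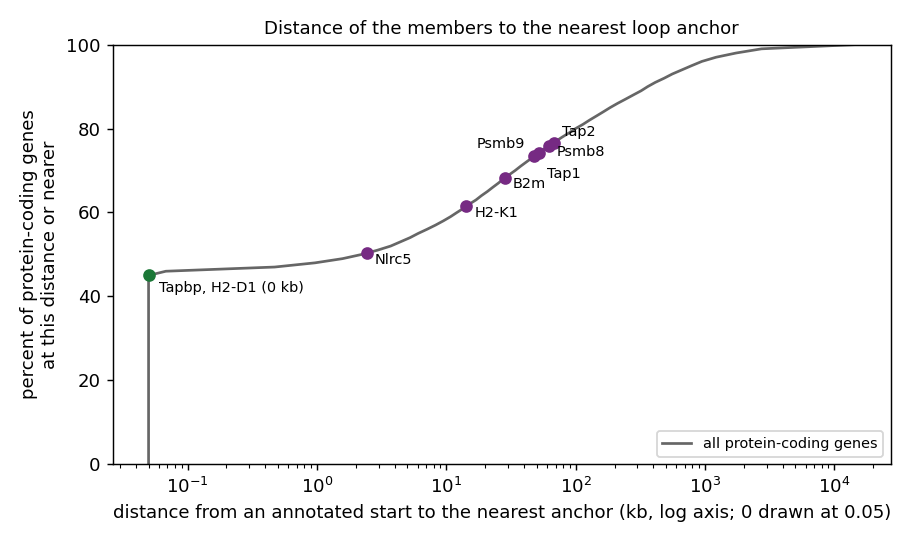
Distance from the nearest annotated start of each of the 9 genes to the nearest loop anchor (x axis, kb, log axis) against the percent of 21755 protein-coding genes at that distance or nearer (y axis); the grey line is all protein-coding genes. Tapbp and H2-D1 have a start inside an anchor, and the other 7 genes lie between 2.44 kb and 67.9 kb from one.

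Tap1, Tap2, Psmb8 and Psmb9 lay together inside a stretch of 427 kb that held no anchor in any list (chr17:34135606-34562851). The stretch held 16 protein-coding genes: these 4, the class II genes H2-DMb2, H2-DMb1, H2-Ob, H2-Ab1, H2-Aa, H2-Eb1 and H2-Eb2, and the butyrophilin-like genes Btnl2, Btnl1, Btnl4 and Btnl6 with BC051142. Class II molecules present peptides to CD4+ T cells and are made mainly by professional antigen-presenting cells. Across the histocompatibility region, taken as chr17:33815899-37583552 from 100 kb before Tapbp to 100 kb past H2-M2, 157 anchors were placed with a median gap of 6.83 kb between neighbours, against 18.3 kb over all chromosomes.

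The stretch was the second longest gap of the region, after one of 541 kb with 8 protein-coding genes (chr17:36273286-36814502). Over all chromosomes 921 of 30522 gaps between neighbouring anchors were as long or longer (3.02%), and 73 of those 921 (7.93%) held 16 or more protein-coding genes, with a median of 2. The stretch was therefore long beside other gaps, and rich in genes beside gaps of its length.

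By the measures taken, the sequence of the stretch was close to that of the parts of the region on either side. Of all 31-base words in the stretch, 83.1% occurred once in the 21 chromosomes of GRCm38, against 84.1% in the part of the region before it and 76.4% in the part after it. GATC, the DpnII site used to fragment the chromatin, occurred 2.51 times per kb in the stretch, 2.75 times per kb before it and 2.78 times per kb after it. Within 2 kb of the gene start, 95.7% of words at Tap1 and at Psmb9, 98.7% at Psmb8 and 80.1% at Tap2 occurred once. Tap2 thus had the most repeated words of these 4 genes. Why no anchor was placed in the stretch was not tested.

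Loops did pass over the stretch. With both anchors inside the histocompatibility region, the 2 sides were joined by 298 distinct loops, of which FOXA1 had 113 in liver mets and 90 in tumor and HNF4G had 84 and 62. Tapbp accounted for 35 of the 298 and H2-D1 for 2. The H2-D1 loop to Angptl4, which starts outside the region, also crossed the stretch. Of the 535 pairs of region anchors that lay 500 to 1000 kb apart across the stretch, FOXA1 listed 8.79% in liver mets (interval 6.67 to 11.5) and 8.60% in tumor (6.51 to 11.3), and HNF4G 7.29% (5.38 to 9.81) and 5.23% (3.65 to 7.46). Of the 2288 pairs at the same spacing that did not cross it, FOXA1 listed 4.76% (3.96 to 5.72) and 2.45% (1.89 to 3.16), and HNF4G 2.49% (1.93 to 3.21) and 2.58% (2.00 to 3.31). The share at this spacing was higher across the stretch in each list, as it was at 1000 to 1500 kb and at 1500 to 2000 kb. At 1500 to 2000 kb it was 0.87% (0.458 to 1.64) against 0.828% (0.402 to 1.7) in HNF4G liver mets. In FOXA1 tumor it was 1.93% (1.25 to 2.97) against 0.237% (0.0649 to 0.859). The pairs that did not cross included anchors with few loops near the far end of the region. Pairs that share an anchor are not independent, and this comparison was not tested.

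**Figure D2:**
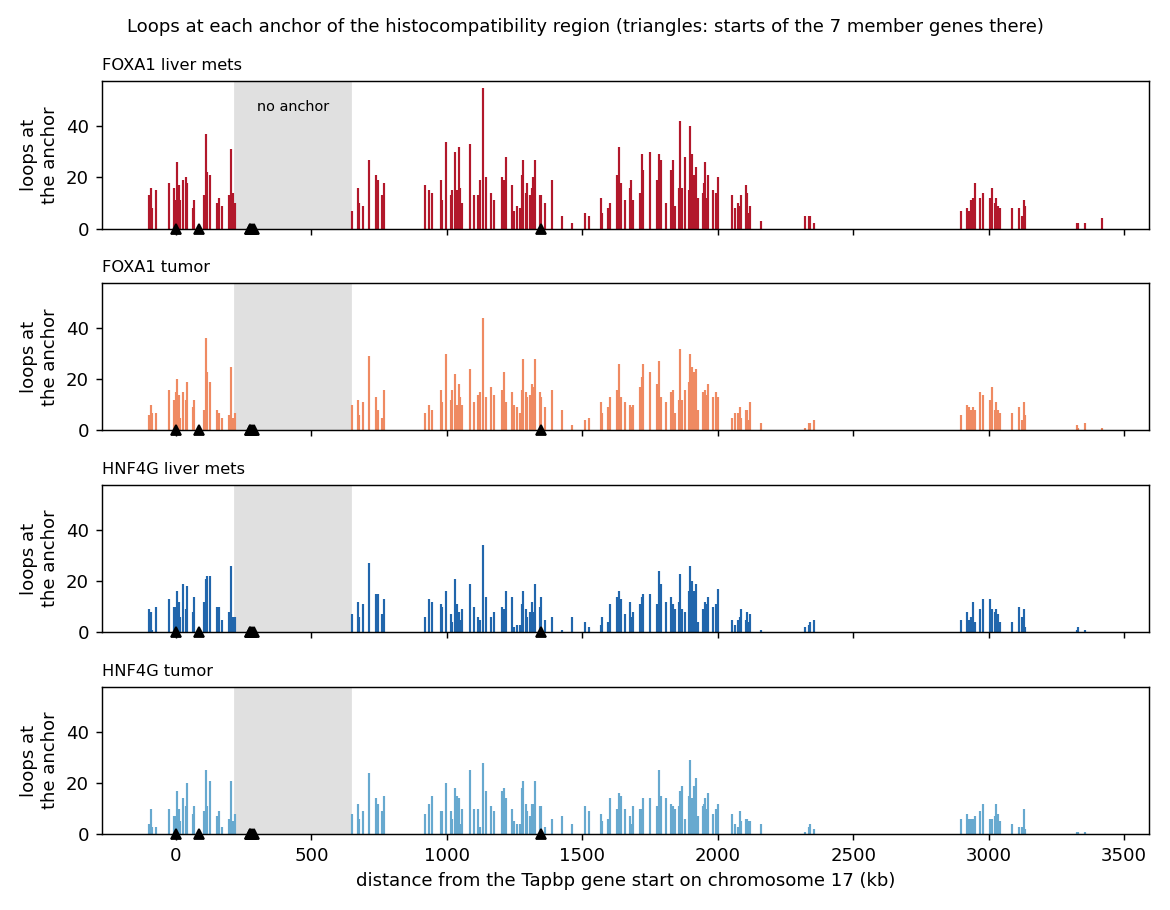
Number of loops at each of the 157 anchors of the histocompatibility region (y axis) by distance of the anchor midpoint from the Tapbp gene start (x axis, kb), with 1 panel per loop list; triangles mark the starts of the 7 member genes on chromosome 17 and the grey band is the 427 kb stretch. No anchor falls in the band in any list, and anchors stand densely on either side of it.

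H2-K1 and H2-D1 are paralogs, and the contrast between an anchored H2-D1 and an H2-K1 with none can be set beside their promoter sequences. RefSeq promoter windows (GRCm38.p6) were matched by symbol for 7 of the 9 members, and the 250 bases before the RefSeq start were searched on both strands. The H2-D1 and H2-K1 windows were 89.5% identical over 190 aligned bases. Each held the NF-kB letters GGGATTCCC, the CRE half-site TGACG and the Y box CCAAT, which read ATTGG on the other strand. The H2-K1 window and the B2m window, less its last base, are shown because they are the promoters of a heavy chain and of the light chain it pairs with, and neither had an anchor. Capitals mark the searched letters:

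H2-K1, chr17:34000348-34000597, minus strand: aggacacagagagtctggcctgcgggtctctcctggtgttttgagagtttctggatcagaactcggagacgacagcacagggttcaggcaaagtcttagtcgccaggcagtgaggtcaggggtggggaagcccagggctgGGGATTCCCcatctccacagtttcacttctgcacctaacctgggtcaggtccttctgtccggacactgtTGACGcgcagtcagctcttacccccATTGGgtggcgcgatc

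B2m, chr2:122147437-122147685, plus strand: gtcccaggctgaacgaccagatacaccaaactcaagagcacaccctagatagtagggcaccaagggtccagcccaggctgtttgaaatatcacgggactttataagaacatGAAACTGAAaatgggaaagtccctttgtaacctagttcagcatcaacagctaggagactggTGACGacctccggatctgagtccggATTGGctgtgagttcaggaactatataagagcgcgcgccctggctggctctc

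Short stretches of the anchored H2-D1 promoter are set beside the same stretches of H2-K1, because they carry the same letters in the same order at a gene with an anchor and at one without. Over 30 bases around the NF-kB letters 29 were identical, and over the 30 bases from the CRE half-site to the Y box 23 were identical:

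H2-D1, chr17:35262914-35262943, plus strand: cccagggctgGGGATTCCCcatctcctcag
H2-K1, chr17:34000438-34000467, minus strand: cccagggctgGGGATTCCCcatctccacag
H2-D1, chr17:35262993-35263022, plus strand: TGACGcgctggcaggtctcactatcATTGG
H2-K1, chr17:34000359-34000388, minus strand: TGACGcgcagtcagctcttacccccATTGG

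The NF-kB letters were held by 0.301% of 32851 promoter windows of this length, TGACG by 17.8% and CCAAT by 33.8%. The interferon-response letters GAAANNGAA, found in the B2m window from 139 to 131 bases before the start, were held by 7.13% of windows, and among the members B2m was the 1 gene with them. TGACG was found in the windows of B2m, H2-K1, H2-D1, Tap1 and Psmb9 and was not found in those of Tapbp and Psmb8. CCAAT was found in all of them but that of Psmb8. The forkhead letters TGTTTAC, which FOXA factors are known to bind, and the HNF4 letters CAAAGTCCA were in none of the members' windows, the anchored Tapbp and H2-D1 included. They were held by 3.17% and 0.384% of all windows. Only 250 bases per window were searched, while the anchors of Tapbp and H2-D1 are 1698 to 3854 bp wide. Most or all of each anchor was therefore not searched, and these letters are not shown to be absent from the anchors. The Tapbp window lies inside the gene, and the H2-D1 window lies in annotated untranslated sequence past the gene start.

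Repeated sequence also bears on how reads map. In the 4 kb around the gene start, 34.5% of 31-base words at H2-K1 and 17.4% at H2-D1 occurred more than once in the chromosomes, against 1.21% at Tapbp and 2.69% at B2m. In the H2-D1 anchor itself the share was 31.6%. Counts at H2-D1 are for this reason uncertain, since a read that matches several places cannot be assigned to one of them. Where the repeated words recur was not recorded, so they are not shown to come from other class I genes. Words were not counted at H2-K2 or the H2-Q genes.

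Tapbp (chr17:33915899-33929292, plus strand) was the member with most loops. It had 3 anchors and 108 distinct loops, of which FOXA1 had 52 in liver mets and 47 in tumor and HNF4G had 37 and 33. Summed over the lists this came to 169 loops, above the sum of 98.5% of protein-coding genes with an anchor, whose median was 23. The number of anchors adds to this rank, since each anchor brings its own loops.

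The Tapbp anchors were not alike. The anchor at the gene start (chr17:33915637-33917334) also covers the start of Zbtb22, a zinc finger gene, and had 11 and 15 loops for FOXA1 and 10 and 7 for HNF4G. The next (chr17:33918598-33921598) lies wholly within Tapbp, with 1332 of its 3001 bp in Tapbp exons, holds the RefSeq start and the antisense gene Gm19412, and had 26 and 20 loops for FOXA1 and 16 and 17 for HNF4G. The last (chr17:33923610-33927463) lies in the gene body, with 989 of 3854 bp in exons, and had 17 and 14 for FOXA1 and 12 and 10 for HNF4G. The middle anchor thus had the most loops in each list, and its summed 79 loops were above the sum of 95.6% of 13819 promoter anchors. The other anchors stood at 80.8% and 87.5%, and the median promoter anchor had 7 and 6 loops for FOXA1 and 4 in each HNF4G list.

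H2-D1 (chr17:35262730-35267499, plus strand) had 1 anchor (chr17:35262488-35264574), with 1003 of its 2087 bp in H2-D1 exons, and 34 distinct loops. FOXA1 had 13 loops in each line, and HNF4G had 14 in liver mets and 11 in tumor. Their sum of 51 exceeded that of 86.3% of promoter anchors. The 4 counts at H2-D1 lay closer together than the sizes of the lists they came from.

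**Figure D3:**
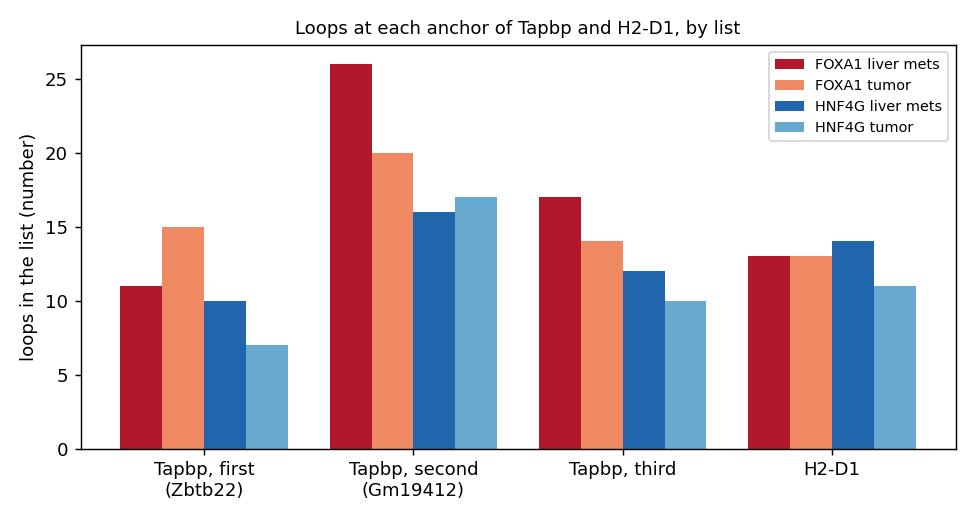
Loops at each of the 3 Tapbp anchors and at the H2-D1 anchor (x axis) in each of the 4 loop lists (y axis, number of loops; bars start at 0), with the other gene that shares an anchor in brackets. The middle Tapbp anchor had 26, 20, 16 and 17 loops, and H2-D1 had 11 to 14.

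Tapbp loops ran mostly to anchors at gene starts, near and far. Their median span was 99.8 to 146.4 kb in the 4 lists, and 30 of the 108 spanned 1000 kb or more. Among promoter loops of all genes 23352 of 181129 did. Of its 64 partner anchors, 54 (84.4%) had an annotated start within 2 kb, against 45.2% of all anchors in the genome. No such share is given here for the anchors of this gene-dense region alone. Counting a contact by any of the Tapbp anchors, 8 partners were contacted in all 4 lists. Toward lower coordinates these were the anchors of Daxx (chr17:33907698-33910889), a histone chaperone, of Kifc1 (chr17:33889066-33894009), a mitotic kinesin, and of Kank3, Ndufa7 and Rps28 (chr17:33823820-33825639). Toward higher coordinates they were the anchors of Pfdn6 and Wdr46 (chr17:33939642-33943418), of B3galt4 and Rps18 (chr17:33950324-33952457), of Rps18 with B3galt4 and Vps52 (chr17:33953352-33956643), of the pseudogene H2-K2 (chr17:33980482-33982412) and of Hspa1b (chr17:34958652-34961823). No single loop to the anchor of Kank3, Ndufa7 and Rps28, of B3galt4 and Rps18 alone, of H2-K2 or of Hspa1b was in all 4 lists. A loop of 1044 kb reached the Hspa1b anchor in FOXA1 tumor and HNF4G liver mets. Another of 1040 kb reached it in FOXA1 liver mets and HNF4G tumor. Pfdn6 encodes a subunit of the prefoldin chaperone, Rps18 and Rps28 encode ribosomal proteins, and Hspa1b encodes an inducible heat shock protein.

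The anchor of Rps18 and Vps52 was the partner joined most often. All 3 Tapbp anchors contacted it in every list, at spans of 29.46, 34.9 and 38.51 kb. The deposited values of these loops, read below as the −log10 of an adjusted p, were low, from 0.09 to 1.30. A further 10 partners were contacted in 3 lists, again counting a contact by any of the Tapbp anchors. They included the anchors of Ring1 and H2-Ke6, of Rxrb and Slc39a7, of Brd2 and H2-DMa, of Ehmt2 and Slc44a4, of Angptl4, and of Rgl2, whose anchor (chr17:33928729-33930931) also covers the last 564 bp of Tapbp. Ring1 is a polycomb protein, Rxrb a nuclear receptor, Brd2 a bromodomain protein and Ehmt2 a histone methyltransferase. Zfp414, Rab11b, Kank3 at an anchor of its own, and Cd320 made up the rest.

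Each listed loop carries a deposited value, read here as the −log10 of an adjusted p, and the loops of Tapbp that recurred were mostly low on this scale. The contact between the middle and last Tapbp anchors, 5.44 kb apart, had values of 0.35 and 0.52 for FOXA1 and of 3.49 and 0.39 for HNF4G. This was the highest Tapbp value in HNF4G liver mets, and the other lists had it near or below 0.5. The contact of the anchor at the gene start with Daxx had values of 0.84 and 0.11 for FOXA1 and of 1.09 and 1.34 for HNF4G, and that of the middle anchor with Daxx had 0.51 and 0.12, and 1.81 and 0.39. Among the 9 Tapbp loops in all 4 lists, 1 reached a value of 2 in any list.

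The highest Tapbp values in the other lists belonged to long loops found in 1 list each. In FOXA1 liver mets it was 3.94 for a loop of 1025 kb from the middle anchor to an anchor with no annotated start (chr17:34943652). In FOXA1 tumor it was 3.97 for a loop of 1128 kb to Clic1 and Msh5. In HNF4G tumor it was 3.90 for a loop of 672.2 kb to Gpsm3 and Pbx2. A loop to Angptl4 over 137.1 kb was the 1 contact to reach 2 in a pair of lists, with 2.37 in FOXA1 tumor and 2.85 in HNF4G liver mets.

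Few member loops had high values in any list. A value of 2 or more was reached by 4 of 65 (6.15%) and 5 of 60 (8.33%) for FOXA1, and by 3 of 51 (5.88%) and 3 of 44 (6.82%) for HNF4G. In the whole lists the shares were 9.33% and 7.84%, and 7.21% and 7.32%. Many loops had exactly the same value within a list, such as 1.87 in 18323 loops of FOXA1 liver mets, so the value ranks long loops poorly.

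H2-D1 had fewer partner anchors than Tapbp. Of its 34 partner anchors, 27 had an annotated start nearby (79.4%), and 2 were contacted in all 4 lists. The nearer (chr17:35256319-35260072) overlaps no annotated gene, lies 5.34 kb away between midpoints, and its loop had values of 0.16 and 0.45 for FOXA1 and of 0.67 and 1.82 for HNF4G. The other (chr17:35300123-35304626) holds the start of the pseudogene Gm18734, 38.84 kb away, with values of 0.09 and 0.32, and of 0.15 and 1.01. HNF4G tumor had the highest value at both contacts.

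Another 3 partners of H2-D1 were contacted in 3 lists. They were the anchor of Ddx39b (chr17:35240977-35243758), which encodes an RNA helicase of mRNA export, at 21.16 kb, the anchor of the pseudogene Gm18733 (chr17:35277424-35279066) at 14.71 kb, and an anchor inside Prrc2a (chr17:35156038-35157738), of which 1381 of 1701 bp are coding sequence, at 106.6 kb. The list without the loop was FOXA1 liver mets for Ddx39b, FOXA1 tumor for Gm18733 and HNF4G tumor for the anchor in Prrc2a.

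H2-D1 contacted its other partners in 1 or 2 lists, 24 of them in 1 list. Immune genes are picked out here, and anchors of other genes, such as Vars, Csnk2b and Flot1, were contacted too. The share of immune genes among the partners was not compared with that in the region. A contact with the anchor of Ltb and Tnf, cytokine genes of the tumor necrosis factor family, spanned 64.79 kb. It was listed in both FOXA1 lists and in neither HNF4G list. Its values were low, 0.0889 in liver mets and 0.123 in tumor, and 13442 and 14721 loops of these lists had the same values. A contact with H2-Q7, a nonclassical class I gene, spanned 175.8 kb and was listed in both tumor lists, with values of 1.51 for FOXA1 and 3.02 for HNF4G. H2-Q2 was contacted in FOXA1 liver mets, H2-Q4 in FOXA1 tumor and H2-Q6 in HNF4G tumor. The anchor of Brd2 and H2-DMa was contacted over 1143 kb in FOXA1 liver mets and HNF4G tumor. Outside the immune genes, a loop to Pou5f1 over 246.0 kb was listed in FOXA1 tumor with a value of 3.08.

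No loop joined Tapbp to H2-D1 in any list. The 3 possible anchor pairs were 1338 to 1347 kb apart, a span at which few pairs were listed. Of the 907 pairs of region anchors 1000 to 1500 kb apart across the anchor-free stretch, FOXA1 listed 5.07% in liver mets and 2.54% in tumor. HNF4G listed 3.31% and 2.21%. At such shares the lack of a loop among 3 pairs says little, although 34 loops of these genes spanned 1000 kb or more. Within Tapbp, the anchor at the start and the last anchor were joined in both FOXA1 lists and in neither HNF4G list. The values of this loop were low, 0.07 in liver mets and 0.12 in tumor. The anchor at the start and the middle anchor lay 3.612 kb apart, under the shortest span of any listed loop, 5.0 kb.

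**Figure D4:**
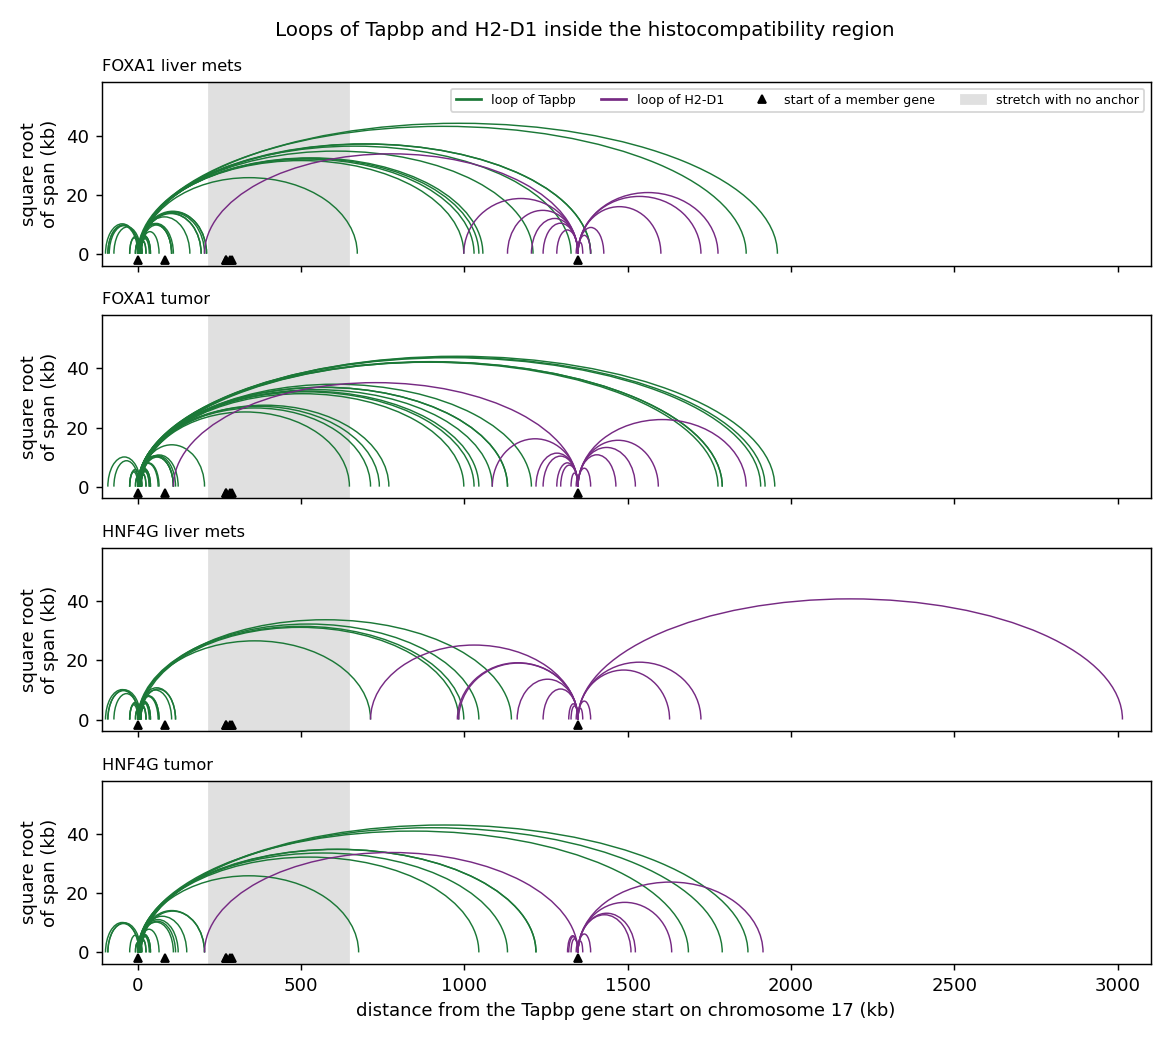
Loops of Tapbp (green) and H2-D1 (purple) that lie inside the histocompatibility region, with 1 panel per loop list; the x axis is the distance from the Tapbp gene start (kb), arcs join anchor midpoints and their height is the square root of the span (kb). Short arcs around Tapbp recur in every panel and long arcs pass over the anchor-free stretch (grey band), while no arc joins the 2 genes; 25 loops that leave the region are not drawn.

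Of 142 distinct loops 117 lay inside the histocompatibility region, 84 of Tapbp and 33 of H2-D1, and 25 left it, 24 of Tapbp and 1 of H2-D1. Listed loops spanned 2000 kb at most, and both genes lie farther than that from the upper end of the region. No loop toward higher coordinates could therefore leave it. The share inside depends on how the region was drawn and is not read as a trait of these genes. Tapbp lies near the edge of the region, and its outside loops reached lower coordinates of chromosome 17. They numbered 10 and 5 for FOXA1 and 9 and 4 for HNF4G, so both liver mets lists had more than the tumor list of the same factor. The counts are small: 10 loops have a Poisson interval of 4.80 to 18.4 and 5 loops one of 1.62 to 11.7. No loop that left the region was in more than 2 lists. H2-D1 loops ran both ways, 19 to lower and 15 to higher coordinates, and its 1 outside loop, to Angptl4 over 1481 kb, was in HNF4G liver mets.

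As among all promoter loops, long member loops were shared between all lists less often than short ones. Of the 142 loops 95 were in 1 list (66.9%), 27 in 2, 9 in 3 and 11 in all 4 (7.75%, Wilson interval 4.38 to 13.3). Among promoter loops of all genes 65.7% were in 1 list and 5.54% in all 4. Below 20 kb 5 of 10 member loops were in all 4 lists, and from 20 to 50 kb 6 of 15 were (40.0%, 19.8 to 64.3), against 33.3% and 15.8% of promoter loops of all genes. From 50 kb upward none of the member loops was in all 4 lists, and the longest that was spanned 38.84 kb. Such loops were few among all genes too: 8.2% of promoter loops were in all 4 lists from 50 to 100 kb, where there were 15 member loops, 2.14% from 100 to 500 kb, where there were 54, and 0.322% or less beyond. Of the 34 loops that spanned 1000 kb or more, 29 were in 1 list (85.3%) and 5 in 2, while 94.2% of promoter loops of all genes at this span were in 1 list. When an anchor pair also counted as shared with anchors widened by 5 kb on each side, 44.4% of member loops were in all 4 lists.

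**Figure D5:**
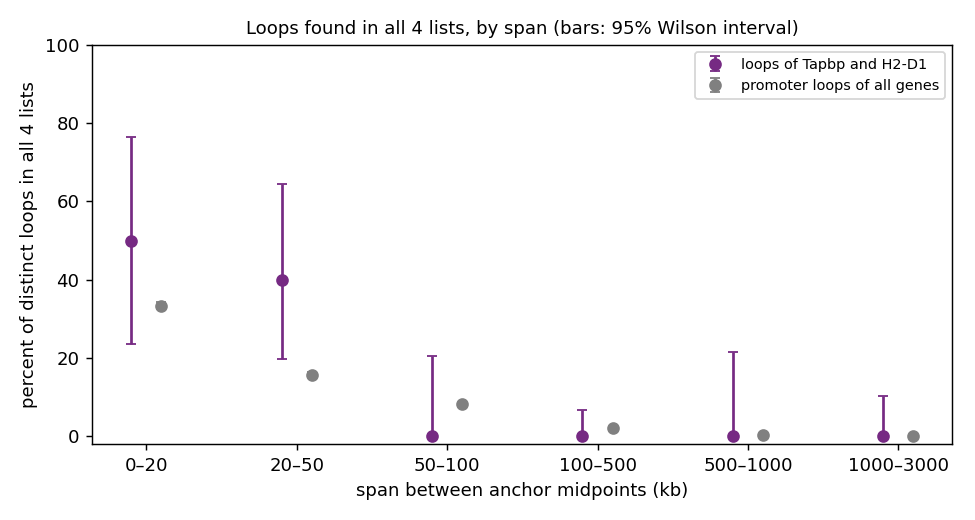
Percent of distinct loops found in all 4 lists (y axis) by span between anchor midpoints (x axis, kb) for loops of Tapbp and H2-D1 (purple) and promoter loops of all genes (grey); bars are 95% Wilson intervals. Member loops were in all 4 lists in 5 of 10 cases below 20 kb, in 6 of 15 from 20 to 50 kb and in none above.

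The loops found in a single list were spread over the 4 lists: 36 and 26 for FOXA1 and 20 and 13 for HNF4G, the order of the list sizes. Pairs of lists had similar numbers of loops in common. Both FOXA1 lists shared 19 loops, both HNF4G lists 19, both liver mets lists 19 and both tumor lists 21. Loops in both lists of a factor and in neither list of the other numbered 4 for FOXA1 and 3 for HNF4G, and those in both lists of a context and neither of the other 3 for liver mets and 6 for tumor. The same overlaps are not given here for all promoter loops, and the lists differ in size. These counts are therefore not read as a trait of these genes.

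The liver mets and tumor lines did not differ in their number of member loops beyond counting error. For FOXA1 there were 65 loops against 60, which gives a ratio of 1.08 (0.751 to 1.57), while its whole lists stood at 1.21. For HNF4G there were 51 against 44, which gives 1.16 (0.759 to 1.78), with whole lists at 1.02. For Tapbp the ratios were 1.11 (0.731 to 1.68) for FOXA1 and 1.12 (0.682 to 1.85) for HNF4G, and for H2-D1 they were 1.00 (0.427 to 2.34) and 1.27 (0.537 to 3.1). Every interval included 1 and also the ratio of the whole lists, and the widest reached from 0.537 to 3.1. The FOXA1 ratio of the members turned below 1, to 0.898 when divided by list size, to 0.857 with gene starts only and to 0.8 at a minimum value of 2. Per 10000 loops of the list, the members had 5.17 and 5.76 for FOXA1 and 6.53 and 5.76 for HNF4G.

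The share of long member loops did not differ between the lines beyond counting error. Loops of 100 kb or more made up 58.5% and 60.0% for FOXA1 and 52.9% and 56.8% for HNF4G. Among promoter loops of all genes they made up 63.8% and 60.3%, and 55.3% and 58.7%. Liver mets minus tumor was -1.54 percentage points for FOXA1 (-18.2 to 15.3) and -3.88 for HNF4G (-22.9 to 15.7). Median spans were 142.5 and 113.1 kb for FOXA1 and 102.5 and 108.5 kb for HNF4G, against 173.6 and 149.6 kb, and 123.4 and 141.6 kb, for promoter loops of all genes. Other measures of length were farther apart for HNF4G. Loops of 1000 kb or more were 5 of 51 (9.8%) against 9 of 44 (20.5%) for HNF4G and 11 of 65 (16.9%) against 14 of 60 (23.3%) for FOXA1. Among promoter loops of all genes the shares were 7.66% against 8.53% for HNF4G and 10.1% against 8.55% for FOXA1. The median span of H2-D1 loops was 233.2 kb from 14 loops against 38.84 kb from 11 for HNF4G. These differences were not tested. With starts up to 5 kb from an anchor, the difference in the 100 kb share turned to 2.05 points for FOXA1 and 5.88 for HNF4G.

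Counted over all loops with both anchors in the histocompatibility region, the FOXA1 counts were 1175 and 971, a ratio of 1.21 (1.11 to 1.32), equal to that of the whole lists. The HNF4G counts were 757 and 770, a ratio of 0.983 (0.888 to 1.09), with whole lists at 1.02. Divided by list size, the FOXA1 ratio was 1.00.

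For each protein-coding gene with 10 or more loops summed over the 2 lists compared, the count plus 1 was divided by list size and a 1.5-fold difference was called. For FOXA1 in liver mets over tumor 23.7% of 6876 genes were called, and neither Tapbp (0.915) nor H2-D1 (0.829) was. For HNF4G in liver mets over tumor 27.2% of 5439 genes were called, and again neither Tapbp (1.09) nor H2-D1 (1.22) was. For FOXA1 over HNF4G in liver mets 28.7% of 6356 genes were called, H2-D1 among them at 0.58, from 13 and 14 loops in lists of unequal size, while Tapbp stood at 0.867. For FOXA1 over HNF4G in tumor 31.1% of 6047 genes were called, and Tapbp (1.03) and H2-D1 (0.855) were not. The members thus had 1 call in 8 comparisons.

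Of 46 other genes of the pathway 24 had an anchor (52.2%), against 49.2% of protein-coding genes. By list these were 5 of 8 in peptide supply and loading (62.5%), 8 of 14 other class I genes (57.1%), 10 of 14 in interferon signalling and RFX factors (71.4%), and 1 of 10 class II genes (10.0%). The class II gene was H2-DMa, whose product edits the peptides of class II molecules, with 40 and 31 loops for FOXA1 and 31 and 28 for HNF4G at 2 anchors. Jak2, a kinase of the interferon-gamma receptor, had 23 and 16 loops for FOXA1 and 9 and 10 for HNF4G, and Irf2, an interferon regulatory factor, had 26 and 21, and 10 and 5. Calr, the chaperone that works beside tapasin, had 13 and 12 for FOXA1 and 14 and 10 for HNF4G. Irf1, an activator of class I genes, had 7 and 8, and 5 and 4. Tapbpl, a relative of tapasin, had 11 and 16, and 12 and 9. Psmb10, the third inducible subunit of the immunoproteasome, had an anchor with 7 and 7, and 6 and 2 loops, unlike Psmb8 and Psmb9, and the proteasome activator gene Psme1 had 4 and 6, and 6 and 5. Among the genes without an anchor were the interferon-gamma receptor gene Ifngr1, the interferon factor Irf9, the chaperone Canx, and Rfx5 and Rfxank of the RFX complex.

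By the same 1.5-fold rule, 6 of 17 of these genes were called for FOXA1 in liver mets over tumor, against 23.7% of all genes tested. Of all genes tested, 14.4% were lower in liver mets and 9.34% higher. Among the 6, H2-T24 was higher in liver mets (1.66), and Psme1 (0.592), Tapbpl (0.585), H2-Q2 (0.553), Stat2 (0.553) and Ifnar1 (0.414) were lower. For HNF4G 3 of 12 were called, against 27.2% of all genes tested, with Irf2 higher in liver mets (1.79) and H2-Q6 (0.407) and H2-Q7 (0.293) lower. For HNF4G, H2-Q7 had 2 loops against 9, and H2-Q6 had 4 against 11. Between the factors, 6 of 14 were called in liver mets and 3 of 15 in tumor, against 28.7% and 31.1% of all genes tested. In tumor the called genes were Irf2, with a FOXA1 over HNF4G ratio of 2.69, H2-Q6 (0.305) and H2-Q7 (0.44). In liver mets Irf2 (1.53) and H2-T24 (1.87) were higher for FOXA1, and Psme1 (0.444), Stat2 (0.466), Tapbpl (0.574) and Calr (0.58) were lower. Among all genes tested, too, more were lower than higher in each of these comparisons. The values named here are ratios of small counts and no test was made.

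The protein-coding genes at other anchors whose counts over the 4 lists were most like those of Tapbp were Flot1, K230010J24Rik and Wnk4. Likeness was the summed absolute difference of log2 loop counts per list size over 4 lists, and it was 0.17 for Flot1, with 49, 47, 36 and 32 loops, 0.24 for K230010J24Rik and 0.25 for Wnk4. Flot1 lies in the same region of chromosome 17.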

How the data were processed

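FOXA1 and HNF4G Hi-ChIP was available as 1 loop list for each of 4 groups of 2 replicates. The authors aligned reads to mm10 with HiC-Pro (3.1.0 per the submitters' processing notes), removed duplicates, assigned reads to DpnII fragments and ran hichipper. How replicates were joined and where the anchors came from is not given in the sources used here. The deposited value of each loop has no name and was read as a −log10 adjusted p from its ties and its upper limit of 20, so this unit is uncertain.

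Anchors were matched to GENCODE M21 starts on GRCm38 (mm10) in Python 3.11.15 with pandas 2.3.3 and numpy 2.4.6. Loops were the same when both anchors were identical. Intervals came from scipy 1.17.1 at 95%: Clopper-Pearson for ratios, Wilson for shares, Newcombe for differences of shares, Poisson for counts. Windows were aligned with Biopython 1.88. The counting was tested on simulated data. All members, named loops, partners contacted in 3 or more lists and pathway genes are reported. The partners contacted in 1 or 2 lists, the loops over the anchor-free stretch and the sequences were named after their values were seen. Members and lists were chosen with earlier results of these data known. Alternatives were other distances, minimum values, spans, paddings and division by list size.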

Additional observations from a re-analysis of the deposited data

Results flagged for a closer look

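The ratio of liver mets over tumor, with the count plus 1 divided by list size, lay on opposite sides of 1 for the 2 factors at both genes. For H2-D1 it was 0.829 for FOXA1 and 1.22 for HNF4G, from 13 and 13 loops and from 14 and 11. For Tapbp it was 0.915 for FOXA1 and 1.09 for HNF4G, from 52 and 47 loops and from 37 and 33. No test of this contrast was made: it was not tested because every value comes from a single list. Before division by list size no FOXA1 ratio was below 1 (1.00 for H2-D1 and 1.11 for Tapbp), so the FOXA1 direction comes from the larger FOXA1 liver mets list. The median ratio over all genes was 0.947 for FOXA1 and 0.977 for HNF4G.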

How the results depend on the processing

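Of 36 values under other settings, 30 moved by less than their counting interval, 6 moved by more and 0 reversed a called value, since no member difference was called. Uncalled directions did turn. The FOXA1 ratio of member loops went from 1.08 to 0.857 with gene starts only, 0.8 at a minimum value of 2 and 0.898 divided by list size. With starts up to 5 kb away, the difference in the share of loops of 100 kb or more went from -1.54 to 2.05 points for FOXA1 and from -3.88 to 5.88 for HNF4G. At a minimum value of 2, the liver mets over tumor ratio of loops in the histocompatibility region was 1.41 for FOXA1 (93 and 66 loops) and 1.10 for HNF4G (46 and 42 loops), and the share of member loops of 100 kb or more was -25.0 percentage points for FOXA1 and -33.3 for HNF4G in liver mets minus tumor, from 3 to 5 loops a list. Divided by list size, the FOXA1 ratio for the region was 1.00. With anchors widened by 5 kb, 44.4% of member loops were in all 4 lists. No paired analysis was possible because each group has 1 list that joins both replicates, and for the same reason no replicate could be left out. Read depth is unknown, and genes without an anchor have no measurement.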
